A study of Homo sapiens with 12 samples.

Results

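Aminoacyl-tRNA synthetases were followed in LNCaP cells depleted of BRG1, the ATPase of the SWI/SNF chromatin remodeller that is encoded by SMARCA4. The set was taken by gene symbol and holds 35 of the 63568 genes in the expression table, of which 19 encode cytosolic enzymes and 16 mitochondrial enzymes. All 35 were expressed highly enough to be tested.

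LNCaP is an androgen-responsive cell line from a lymph node metastasis of prostate cancer. There were 12 RNA-seq libraries, all from this one line, in 4 groups. The si-NT groups of 2 libraries each came from cells given a pool of non-targeting siRNA (si-NT) for 72 h or 144 h. The BRG1 depleted groups of 4 libraries each came from cells given either of 2 siRNAs against SMARCA4 for the same times, with 2 libraries per siRNA and time point. All cells that were kept for 144 h, the si-NT cells included, were harvested at 72 h, divided 1:2 and given siRNA again, so the later time point carries a replating and a second transfection as well as a longer depletion. The sources used here do not say whether the libraries of a pair came from separate cultures, so p-values measure the spread between these libraries, which may be technical. The siRNAs are named 2 and 3 as in the expression table. The sample labels number them 1 and 2, and those of 1 library at 72 h give both numbers, so which siRNA of the labels is which in the table is not known. This leaves the BRG1 depleted groups as they are, and values per siRNA rest on the table's numbering alone.

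Aminoacyl-tRNA synthetases join each amino acid to its own tRNA, the step that fixes the meaning of the genetic code. Human cells hold a cytosolic set, which serves the bulk of protein synthesis, and a mitochondrial set, which is encoded in the nucleus and serves translation of the proteins encoded by mitochondrial DNA. GARS1 and KARS1 supply both compartments and were counted here as cytosolic. Many cytosolic synthetase genes are known targets of ATF4, the transcription factor of the amino acid and integrated stress response, which binds composite C/EBP-ATF response elements.

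Expression is given as TPM, a transcript's share of the library after correction for its length, so that levels can be compared between genes. SMARCA4 was at 73.44 and 97.01 TPM in the si-NT libraries at 72 h and between 17.48 and 21.7 TPM in the BRG1 depleted libraries, which was 77.3% lower. At 144 h it was at 94.5 and 106.59 TPM in si-NT cells and between 11.42 and 17.44 TPM after depletion, 84.9% lower. The groups did not overlap at either time, and the knockdown was partial. The luminal prostate genes KLK3, FOLH1, KRT8 and KRT18 were at 241.17 TPM or more in every library, while the blood gene CD3E was at 0 throughout, and PTPRC, COL3A1, KRT5 and KRT14 did not pass 0.33 TPM. The fibroblast gene COL1A1 was between 3.1 and 9.11 TPM. TPM keeps no read depth, so the counting error of a value is unknown. The number of genes at 1 TPM or more ranged from 14706 to 15355 over the libraries.

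Promoter sequences are shown first because some of the cytosolic genes share a stress-response motif, beside which the values at 144 h are set later. Windows from 250 bases before to 50 bases after the annotated start (RefSeq, GRCh38.p14) were at hand for 30 of the 35 genes. The letters TGATGNAA, the core of the C/EBP-ATF response element, were searched on both strands. They occurred in 7 of 16 cytosolic genes (43.8%) and in 1 of 14 mitochondrial genes (7.14%), the latter YARS2, against 4.46% of all genes with a window. The cytosolic matches follow on the strand of each gene, with the motif in capitals.
GARS1, chr7:30594835-30594862, forward strand: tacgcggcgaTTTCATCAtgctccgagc
IARS1, chr9:92293693-92293720, reverse strand: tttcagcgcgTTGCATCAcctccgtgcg
AARS1, chr16:70289676-70289703, reverse strand: tttctcgcagTTGCATCAgccaagttag
CARS1, chr11:3057408-3057435, reverse strand: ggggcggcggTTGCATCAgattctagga
MARS1, chr12:57488054-57488081, forward strand: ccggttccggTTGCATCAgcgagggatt
TARS1, chr5:33440957-33440984, forward strand: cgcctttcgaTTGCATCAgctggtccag
NARS1, chr18:57621805-57621832, reverse strand: ctacgctctcTGATGCAAcgccggaatc

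Of these matches, 6 of 7 lay within 33 bases of the annotated start, and the match of AARS1 began 187 bases before it. GARS1 differed from the other 6 genes in the base at the open position N, and the match of NARS1 was on the opposite strand from the others. The E-box letters CACGTG, which read the same on both strands and share no overlap with the first motif, occurred in 1 of 16 cytosolic genes (IARS1) and in 3 of 14 mitochondrial genes (MARS2, CARS2 and EARS2), against 8.77% of all genes. The windows of HARS1 and HARS2, neighbours that are transcribed away from each other, shared 184 bases. A match in such a window describes the letters only, and binding was not measured in these data.

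In expression level the classes formed an almost separate order. Over the 12 libraries, the median level of a cytosolic gene was 117 TPM, with a range of gene medians from 5.79 to 181 TPM. For mitochondrial genes it was 27.05 TPM, with a range from 4.54 to 88.6 TPM. The highest gene medians belonged to SARS1 (181 TPM), QARS1 (178 TPM), TARS1 (177 TPM) and GARS1 (168 TPM), the seryl-, glutaminyl-, threonyl- and glycyl-tRNA synthetases, whose ranges over the libraries overlapped. IARS2 was the highest mitochondrial gene at 88.6 TPM, level with the cytosolic FARSB at 88.2 TPM. CARS1, at 50.4 TPM, also fell within the mitochondrial range. VARS1 and VARS2, the cytosolic and mitochondrial valyl-tRNA synthetases, were the lowest of all at 5.79 and 4.54 TPM. Both lie in the histocompatibility region of chromosome 6, for which the table appears to hold more than one copy. RPS18, from the same region, had 3 further lines with values identical to its own in every library. No member had such an identical line, but reads of VARS1 and VARS2 may have been divided among copies, so the levels and changes of both are uncertain.

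Enzymes for the same amino acid could be set side by side in 17 pairs, with EPRS1, which charges both glutamate and proline, paired with EARS2 and PARS2, and the subunits FARSA and FARSB of the cytosolic phenylalanyl enzyme each paired with FARS2. In si-NT cells the cytosolic level exceeded the mitochondrial level in every pair. The ratio of mean si-NT TPM was lowest for isoleucine, at 1.38, and highest for FARSA over FARS2, at 13.6. It was 13.1 for alanine, 12.6 for proline and 8.8 for arginine, whose mitochondrial enzymes were among the least expressed.

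At 72 h after transfection, 0 of 19 cytosolic and 0 of 16 mitochondrial genes passed an adjusted p of 0.05 in either direction (limma on log2(TPM + 1), adjusted by Benjamini-Hochberg over 16337 genes). Among all genes tested, 0.557% were called lower and 1.13% higher at that time. Without adjustment, 4 cytosolic genes had p under 0.05, each with a negative log2 fold change: GARS1, YARS1, CARS1 and TARS1. Among mitochondrial genes EARS2 had a negative and MARS2 and VARS2 a positive value at this level. Of all genes, 4.63% were lower and 9.68% higher by this measure, so the 2 mitochondrial genes with positive values are near the background. The median log2 fold change was -0.13 for cytosolic genes and -0.05 for mitochondrial genes, beside 0.06 for all genes tested. The direction of the mitochondrial median rested on single libraries, being 0.01 without replicate 1 and -0.13 without replicate 2 of si-NT at 72 h, and it was -0.12 with median-of-ratios size factors.

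GARS1 came closest to a call at 72 h. It was at 232.81 and 267.04 TPM in si-NT cells, at 160.69 and 185.12 TPM with siRNA 2 and at 205.73 and 149.94 TPM with siRNA 3. Both siRNAs thus gave values under the si-NT range, and the log2 fold change was -0.52 (SE 0.12, adjusted p = 0.0532). Without replicate 1 of siRNA 3 at 72 h, 1 cytosolic gene was called. In 4 cytosolic and 2 mitochondrial genes the depleted libraries were without exception under the si-NT range, as in 6.93% of all genes. The opposite, each depleted library over the si-NT range, was seen for 2 mitochondrial genes, MARS2 and VARS2, and for 16.3% of all genes. MARS2, the methionyl enzyme of mitochondria, was at 20.61 and 20.29 TPM in si-NT cells and between 23.41 and 28.25 TPM after depletion, with a log2 fold change of 0.30 (SE 0.12, adjusted p = 0.282).

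At 144 h, 11 of 19 cytosolic genes (57.9%) were called lower in BRG1 depleted cells and 0 higher. The cytosolic genes that fell were AARS1, CARS1, FARSA, FARSB, GARS1, IARS1, KARS1, LARS1, MARS1, TARS1 and YARS1. Of the 16 mitochondrial genes, 4 (25%) were called lower, namely EARS2, FARS2, LARS2 and WARS2, and 0 higher. Among all genes tested, 10.8% were called lower and 13.6% higher. Log2 fold changes of the cytosolic genes were below 0 in 19 of 19, between -0.78 and -0.01 with a median of -0.40. Those of the mitochondrial genes were below 0 in 13 of 16, between -0.57 and 0.26 with a median of -0.22. The median over all genes tested was 0.03. The depleted libraries were without exception under the si-NT range in 14 cytosolic and 10 mitochondrial genes, beside 22.5% of all genes. Whether the classes differed from each other was not tested.

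These counts depended on the scaling and on the 2 si-NT libraries at 144 h. With median-of-ratios size factors 12 cytosolic and 8 mitochondrial genes were called lower, and with quantile normalisation 11 and 8. Over all genes, these settings called 4363 and 4421, of which 51.8% and 49% were higher. The main fit called 1761 of all genes lower and 2222 higher. With the si-NT libraries of both times combined, 13 cytosolic and 7 mitochondrial genes were called lower. For combined and left-out libraries, shares over all genes are not given here. Without replicate 1 of si-NT, 5 cytosolic and 2 mitochondrial genes were called lower, and without replicate 2, 3 and 1. With replicate 1 or replicate 2 of siRNA 3 at 144 h left out, 7 cytosolic genes were called in each case. GARS1, IARS1, YARS1 and LARS2 kept their call with each of the 12 libraries left out in turn. Scaling to the ERCC spike-in RNAs, which were added to equal amounts of total RNA, moved the median of all genes to -0.31 at 144 h. It gave 1 cytosolic and 0 mitochondrial calls, among 593 genes called lower and 139 higher. The 1 cytosolic gene was not among those called without this scaling, so 0 of those 15 calls held. Under this scaling all 35 genes had a log2 fold change below 0 and 20 had an unadjusted p under 0.05. Relative to the shifted median, the median change was -0.49 for cytosolic and -0.29 for mitochondrial genes. The share of called genes that were higher was 66.9% at 72 h and 55.8% at 144 h, and under ERCC scaling 22.6% and 19%. At 72 h it was 48.4% with median-of-ratios size factors and 54.5% with quantile normalisation.

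**Figure D1:**
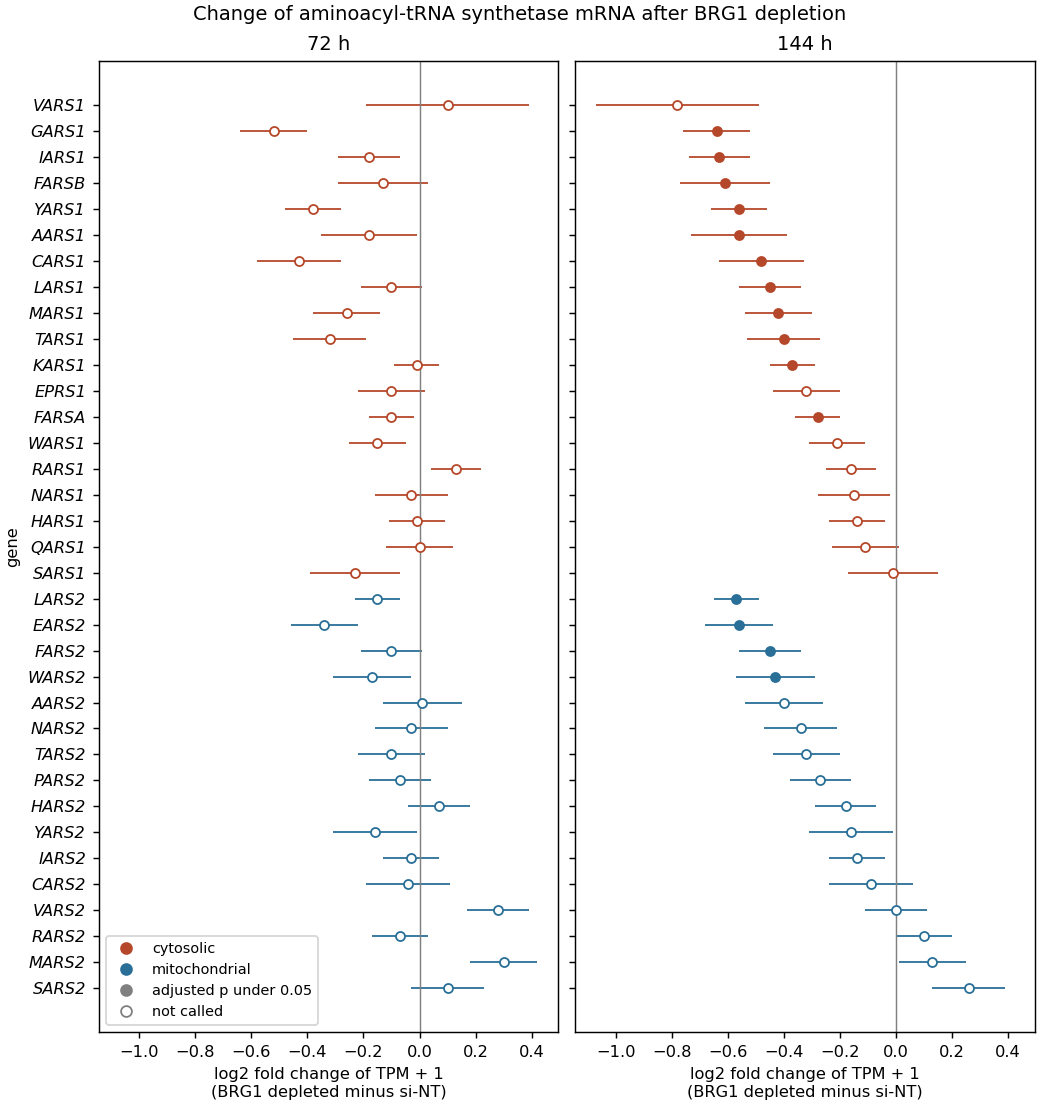
Log2 fold change of each synthetase gene, BRG1 depleted minus si-NT, on the log2(TPM + 1) scale at 72 h and 144 h; bars are standard errors, filled points have an adjusted p under 0.05, and colour marks the class. No point is filled at 72 h, and at 144 h 11 cytosolic and 4 mitochondrial genes are filled, all to the left of 0.

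Among the cytosolic enzymes, the smallest adjusted p at 144 h belonged to IARS1, the isoleucyl enzyme (ENSG00000196305.13, chromosome 9 of GRCh37 from 94972489 to 95056136, reverse strand). IARS1 was at 119.41 and 124.44 TPM in si-NT cells, at 81.9 and 80.81 TPM with siRNA 2 and at 82.79 and 69.05 TPM with siRNA 3. All 4 depleted libraries lay well under the si-NT range, and replicate 2 of siRNA 3 was the lowest. The change was -0.63 on the log2 scale (SE 0.11, adjusted p = 0.0028), or 35.5% less TPM. GARS1, the glycyl enzyme (ENSG00000106105.9, chromosome 7 from 30620149 to 30673649, forward strand), was at 175.12 and 175.49 TPM in si-NT cells, at 113.42 and 116.27 TPM with siRNA 2 and at 112.68 and 106.65 TPM with siRNA 3. The 2 siRNAs gave nearly the same level, 36% below si-NT, with a log2 fold change of -0.64 (SE 0.12, adjusted p = 0.00302). YARS1, the tyrosyl enzyme (ENSG00000134684.6, chromosome 1 from 33240838 to 33283632, reverse strand), was at 113.85 and 115.55 TPM in si-NT cells, at 79.05 and 82.24 TPM with siRNA 2 and at 80.52 and 69.7 TPM with siRNA 3. Its groups did not overlap either, and its log2 fold change was -0.56 (SE 0.10, adjusted p = 0.00356).

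KARS1, the lysyl enzyme, was at 162.25 and 178.04 TPM in si-NT cells at 144 h, at 136.85 and 133.12 TPM with siRNA 2 and at 124.75 and 129.33 TPM with siRNA 3. The groups stayed apart, with a smaller log2 fold change of -0.37 (SE 0.08, adjusted p = 0.00731). LARS1, the leucyl enzyme, was at 119.89 and 113.38 TPM in si-NT cells, at 92.36 and 83.8 TPM with siRNA 2 and at 88.64 and 76.59 TPM with siRNA 3. These values did not overlap, and the log2 fold change was -0.45 (SE 0.11, adjusted p = 0.0158). FARSB, the beta subunit of the phenylalanyl enzyme, was at 101.48 and 120.98 TPM in si-NT cells, at 70.6 and 75.44 TPM with siRNA 2 and at 71.55 and 71.93 TPM with siRNA 3. The depleted libraries were close together and the si-NT libraries apart, with a log2 fold change of -0.61 (SE 0.16, adjusted p = 0.0166). FARSA, the alpha subunit of the same enzyme, fell by 0.28 on the log2 scale (SE 0.08, adjusted p = 0.028).

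The other called cytosolic genes had log2 fold changes of -0.56 for AARS1, -0.48 for CARS1, -0.42 for MARS1 and -0.40 for TARS1, the alanyl, cysteinyl, methionyl and threonyl enzymes. Exons of MARS1 overlap those of DDIT3 on the other strand, and DDIT3, a stress transcription factor, is on the list of amino acid stress genes below. The strand setting of the read counting is not given in the sources used here, so reads of the 2 genes may not have been told apart. Exons of 6 cytosolic and 5 mitochondrial genes overlap those of another protein-coding gene in the GRCh37 annotation, among them AARS1, KARS1, YARS1 and EARS2. For AARS1, KARS1 and YARS1 the other gene is on the other strand. EARS2 overlaps GGA2 on the same strand, where strand does not tell reads apart.

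Of the cytosolic genes not called, VARS1 had the most negative value, -0.78 (SE 0.29, adjusted p = 0.0713), at a low and scattered level of 7.33 and 12.8 TPM in si-NT cells and 4.23 to 6.01 TPM after depletion. EPRS1 was at -0.32, WARS1 at -0.21, RARS1 at -0.16, NARS1 at -0.15, HARS1 at -0.14 and QARS1 at -0.11. SARS1, which had the highest median TPM over the 12 libraries, was at -0.01 (SE 0.16), with 178.98 and 169.9 TPM in si-NT cells and 165.3 to 183.42 TPM after depletion, so the si-NT values lay within the range of the depleted ones.

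**Figure D2:**
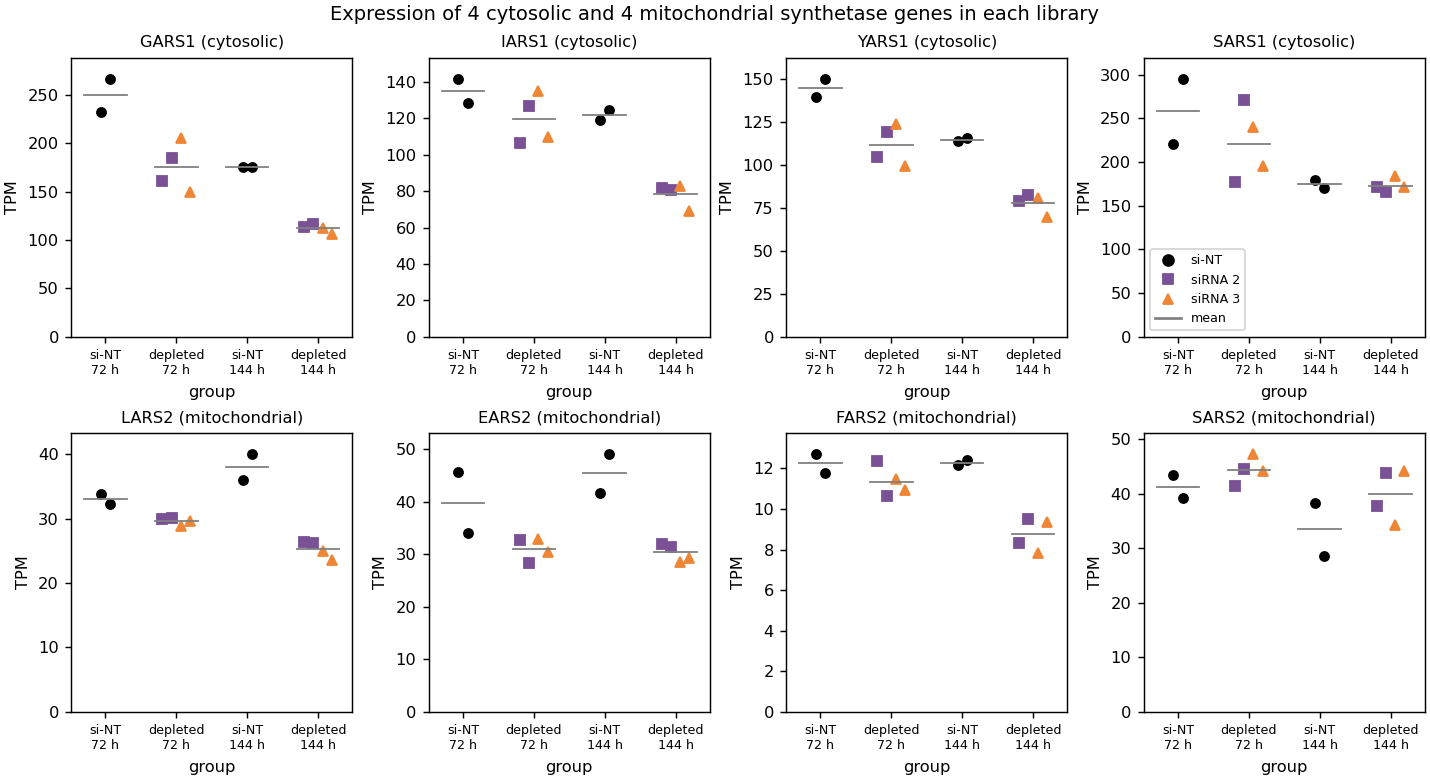
TPM in each library for the cytosolic genes GARS1, IARS1, YARS1 and SARS1 and the mitochondrial genes LARS2, EARS2, FARS2 and SARS2; symbols mark si-NT, siRNA 2 and siRNA 3, and grey lines are group means. At 144 h the depleted libraries of 6 genes lie under the si-NT range, while those of SARS1 and SARS2 overlap with si-NT.

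Among the mitochondrial enzymes, LARS2, the leucyl enzyme of the organelle (ENSG00000011376.5, chromosome 3 of GRCh37 from 45430053 to 45596218, forward strand), had the smallest adjusted p of all 35 genes at 144 h. LARS2 was at 36.04 and 40.05 TPM in si-NT cells, at 26.43 and 26.23 TPM with siRNA 2 and at 24.99 and 23.59 TPM with siRNA 3. Each depleted library was far below si-NT, and the change was -0.57 on the log2 scale (SE 0.08, adjusted p = 0.000962), or 33.5% less TPM. EARS2, the glutamyl enzyme (ENSG00000103356.11, chromosome 16 from 23532075 to 23569052, reverse strand), was at 41.66 and 49.12 TPM in si-NT cells, at 31.99 and 31.41 TPM with siRNA 2 and at 28.58 and 29.34 TPM with siRNA 3. Its groups did not overlap, with a log2 fold change of -0.56 (SE 0.12, adjusted p = 0.00764). FARS2, the single-chain phenylalanyl enzyme, was at 12.15 and 12.4 TPM in si-NT cells, at 8.32 and 9.48 TPM with siRNA 2 and at 7.84 and 9.36 TPM with siRNA 3. It fell by 0.45 on the log2 scale (SE 0.11, adjusted p = 0.0112).

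WARS2, the tryptophanyl enzyme, was at 22.34 and 24.84 TPM in si-NT cells, at 20.72 and 18.37 TPM with siRNA 2 and at 15.03 and 15.6 TPM with siRNA 3. The libraries of siRNA 3 were the lowest, and the pooled log2 fold change was -0.43 (SE 0.14, adjusted p = 0.0418). AARS2, the alanyl enzyme, was at 11.62 and 11 TPM in si-NT cells, at 8.29 and 10.14 TPM with siRNA 2 and at 8.32 and 6.92 TPM with siRNA 3, and its log2 fold change of -0.40 did not pass (SE 0.14, adjusted p = 0.0669). The depleted libraries of AARS2 were nevertheless all below si-NT. NARS2, the asparaginyl enzyme, was at 26.57 and 31.05 TPM in si-NT cells, at 22.44 and 24.79 TPM with siRNA 2 and at 21.88 and 21.06 TPM with siRNA 3, and its value of -0.34 did not pass either (SE 0.13, adjusted p = 0.073).

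The remaining mitochondrial genes were not called. TARS2 was at -0.32, PARS2 at -0.27, HARS2 at -0.18, YARS2 at -0.16, IARS2 at -0.14 and CARS2 at -0.09. Positive values were found for SARS2 at 0.26, MARS2 at 0.13 and RARS2 at 0.10, the seryl, methionyl and arginyl enzymes, each with overlapping groups. SARS2 was at 38.3 and 28.61 TPM in si-NT cells and between 34.26 and 44.18 TPM after depletion (SE 0.13, adjusted p = 0.184). Exons of SARS2 overlap another coding gene on the same strand. For VARS2 the difference rounded to 0 on the log2 scale.

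**Figure D3:**
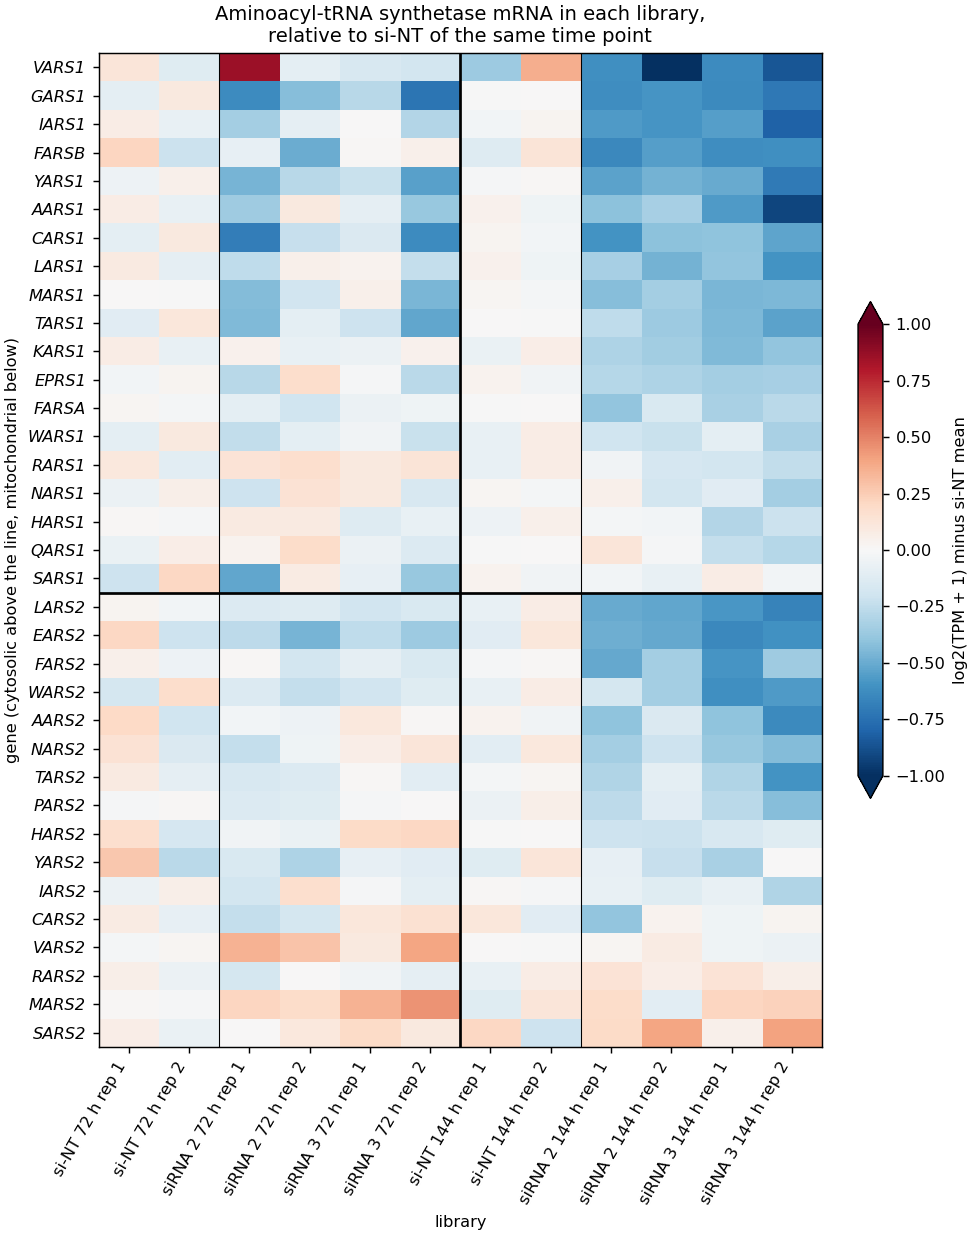
Heat map of log2(TPM + 1) minus the si-NT mean at that time, with 35 genes in rows (cytosolic above the line) and 12 libraries in columns; the colour scale ends at 1 in both directions. Rows of each class are sorted by log2 fold change at 144 h, the most negative first, so this order places blue in the upper rows. Blue fills most cytosolic rows and the upper mitochondrial rows of the 4 depleted libraries at 144 h. At 72 h blue is strongest in replicate 1 of siRNA 2 and replicate 2 of siRNA 3.

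In the 17 pairs for the same amino acid, the cytosolic enzyme had the more negative log2 fold change at 144 h in 11. Both enzymes were called lower in 3 pairs, one for leucine and the pairs of FARSA and FARSB with FARS2. The cytosolic enzyme alone was called in 6 pairs, for alanine, cysteine, isoleucine, methionine, threonine and tyrosine. The mitochondrial enzyme alone was called in 2, EARS2 against EPRS1 and WARS2 against WARS1. Of all single genes tested, 10.8% were called lower at 144 h. The widest gaps between the log2 fold changes, cytosolic minus mitochondrial, were -0.78 for valine, -0.55 for methionine and -0.49 for isoleucine. The valine gap rests on VARS1 and VARS2, which were not called and whose levels and changes are uncertain. In the other direction the widest gap was 0.24, for EPRS1 against EARS2. The gaps were not tested.

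**Figure D4:**
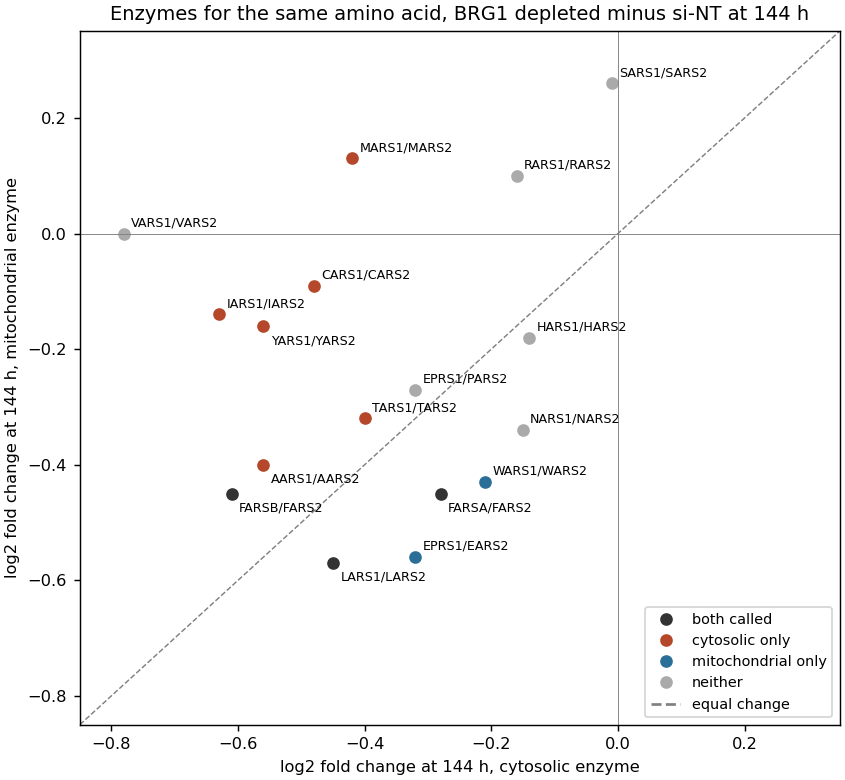
Log2 fold change at 144 h of the cytosolic enzyme (horizontal axis) against that of the mitochondrial enzyme for the same amino acid (vertical axis), BRG1 depleted minus si-NT; colour gives which of the 2 was called, and the dashed line is equal change. Of 17 pairs, 11 lie above the line, where the cytosolic enzyme had the more negative value.

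The 2 structural classes of synthetase, which fold and attach the amino acid in different ways, gave similar shares of called genes. Of 18 class I genes 8 were called lower at 144 h, with a median log2 fold change of -0.31, and of 16 class II genes 7, with a median of -0.33. EPRS1, which joins an enzyme of each class in 1 chain, was in neither count. The multi-synthetase complex is a large cytosolic assembly. Of its 7 enzymes among these genes (EPRS1, IARS1, KARS1, LARS1, MARS1, QARS1 and RARS1), 4 were called lower, with a median of -0.37. Of the 12 other cytosolic genes 7 were called, with a median of -0.44. Among all genes tested, 10.8% were called lower at 144 h, and the median was 0.03.

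Summed over each class, cytosolic synthetase mRNA made up 2668 and 2769 TPM in si-NT cells at 72 h and 2381 and 2422 TPM at 144 h. After depletion the sum was 2246 and 2600 TPM with siRNA 2 and 2574 and 2222 TPM with siRNA 3 at 72 h. At 144 h it was 1979 and 1953 TPM with siRNA 2 and 1876 and 1769 TPM with siRNA 3. The group mean was thus 11.3% lower at 72 h and 21.1% lower at 144 h, with no overlap at either time. The mitochondrial sum averaged 498 ± 35.4 TPM (SD, n = 2) without and 482 ± 20.4 TPM (SD, n = 4) with depletion at 72 h, where the groups overlapped. The averages at 144 h were 499 ± 12.7 TPM (SD, n = 2) and 431 ± 11.1 TPM (SD, n = 4), 13.6% lower and without overlap. The ratio of the cytosolic to the mitochondrial sum stood at 4.81 ± 0.0636 (SD, n = 2) without and 4.4 ± 0.155 (SD, n = 4) with depletion at 144 h. The ratios at 72 h overlapped, from 5.1 to 5.86 without and from 4.51 to 5.47 with depletion. All libraries came from this cell line and TPM are shares of a library, so a lower sum does not give RNA per cell. In bulk RNA, a shift between cell states and a change within each cell cannot be told apart. The paper reported more cells in the G1 phase of the cell cycle after depletion. The part of cell cycle phase in these values was not tested.

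**Figure D5:**
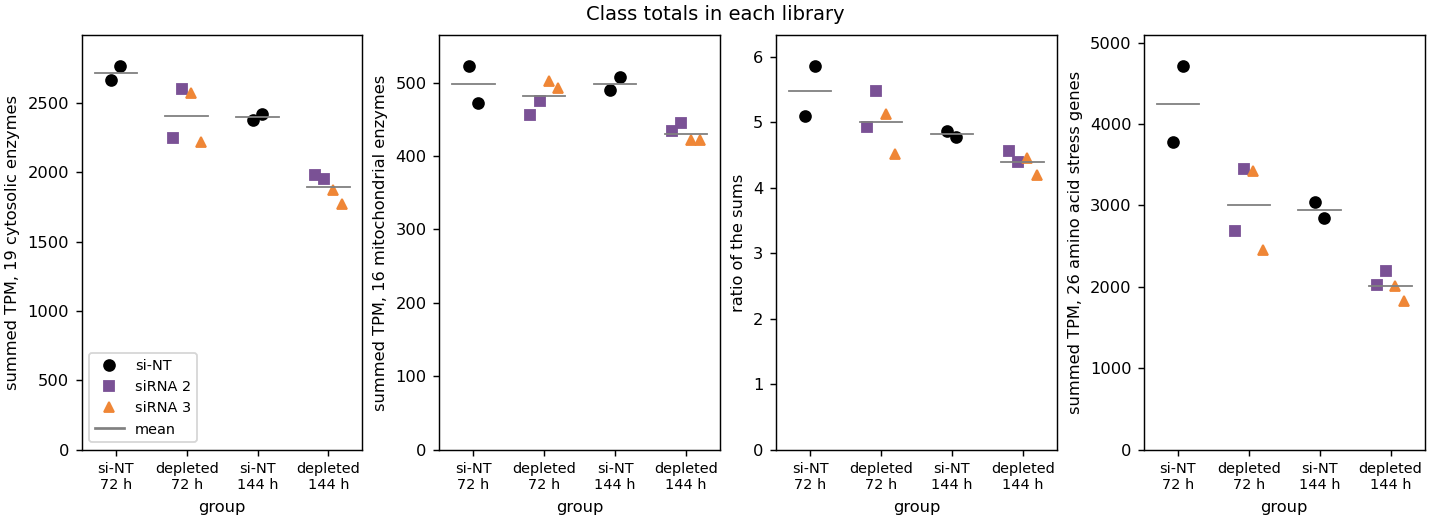
Summed TPM of the 19 cytosolic and 16 mitochondrial synthetase genes, the ratio of these sums, and the summed TPM of 26 amino acid stress genes, one point per library with group means in grey and axes from 0. The cytosolic sum runs from 2769 TPM in a si-NT library at 72 h to 1769 TPM in a depleted library at 144 h, and the mitochondrial sums of depleted and si-NT libraries overlap at 72 h but not at 144 h.

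The depleted libraries at 72 h were uneven for the cytosolic class. Replicate 1 of siRNA 2 and replicate 2 of siRNA 3 had the lowest cytosolic sums, 2246 and 2222 TPM, and also the lowest summed level of 26 amino acid stress genes, 2683 and 2448 TPM. The other depleted libraries of that time were at 3442 and 3428 TPM for the stress genes and the si-NT libraries at 3778 and 4714 TPM. The cytosolic sum and the stress genes were therefore low in the same libraries, across both siRNAs. The part of stress signalling in the synthetase values was not tested.

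No synthetase gene was called for a difference between the changes at 144 h and 72 h, where 0.0184% of all genes were. Without adjustment, 3 cytosolic genes (IARS1, KARS1 and RARS1) and 2 mitochondrial genes (FARS2 and LARS2) had p under 0.05 with a more negative change at 144 h, beside 6.35% of all genes. KARS1 changed by -0.01 at 72 h and -0.37 at 144 h, a difference of -0.36 (SE 0.11, adjusted p = 0.302). LARS2 changed by -0.15 and -0.57, a difference of -0.42 (SE 0.12, adjusted p = 0.272). For GARS1, by contrast, the values of -0.52 and -0.64 were close, and the difference was -0.12 (SE 0.17, adjusted p = 0.808). An effect called at 144 h and not at 72 h is thus not shown to differ between the times.

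The same genes were compared between the si-NT groups, as a background of time in culture and repeated transfection. No synthetase gene was called, and 0% of all genes were. Without adjustment, 6 cytosolic genes were lower at 144 h (CARS1, GARS1, MARS1, SARS1, WARS1 and YARS1) and 0 mitochondrial genes, beside 2.57% of all genes. SARS1 was at 220.58 and 295.39 TPM at 72 h and 178.98 and 169.9 TPM at 144 h in si-NT cells, a log2 difference of -0.55 (SE 0.18, adjusted p = 0.974). GARS1 differed by -0.51 (SE 0.13, adjusted p = 0.974), as much as it did between si-NT and depleted cells at 72 h. These comparisons share si-NT libraries with those of depletion.

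Between the siRNAs, 0 of 35 genes were called at 72 h or 144 h, where 0.141% and 0.331% of all genes were. Without adjustment, 2 cytosolic genes were lower with siRNA 3 at each time, 2 mitochondrial genes were higher at 72 h and 1 was lower at 144 h. Of all genes, 2.94% were lower and 5.39% higher with siRNA 3 at 72 h and 9.9% lower at 144 h, so the counts at 144 h are near the background. Against si-NT at 144 h in a fit with 6 groups, siRNA 2 gave 5 cytosolic and 3 mitochondrial genes called lower, beside 7.67% of all genes, and siRNA 3 gave 9 and 6, beside 10.4%. GARS1 changed by -0.61 with siRNA 2 and -0.67 with siRNA 3, IARS1 by -0.58 and -0.68, and LARS2 by -0.51 and -0.63. AARS1 changed by -0.37 with siRNA 2 and -0.74 with siRNA 3, and WARS2 by -0.26 and -0.59, and both were called with siRNA 3 alone. For QARS1, the glutaminyl enzyme, the values were 0.05 and -0.26, with unadjusted p = 0.0059 between the siRNAs in the limma fit, which did not pass adjustment.

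Related genes were read in the same way. Of 11 partners of tRNA charging, 4 were called lower and 1 higher at 144 h. At 72 h 0 were called, with 1 higher at an unadjusted p under 0.05, beside 9.68% of all genes. DTD1, which removes D-amino acids from tRNA, averaged 39 ± 1.9 TPM (SD, n = 2) without and 25.8 ± 1.95 TPM (SD, n = 4) with depletion at 144 h, and its log2 fold change was -0.58 (SE 0.09, adjusted p = 0.00158). GATB, a subunit of the enzyme that makes mitochondrial glutaminyl-tRNA by amidation, changed by -0.56 (SE 0.11, adjusted p = 0.00358). PSTK, the kinase on the way to selenocysteinyl-tRNA, rose by 0.40 (SE 0.09, adjusted p = 0.0109). The median of the list was -0.37, beside 0.03 for all genes, of which 10.8% were called lower and 13.6% higher.

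Of 10 genes listed as translation elongation factors, 3 were called lower at 144 h, beside 10.8% of all genes, with a median of -0.30. At 72 h 0 were called, with 2 lower at an unadjusted p under 0.05, beside 4.63% of all genes. The 3 called genes are among the 4 mitochondrial factors on the list, of which GFM2 acts in ribosome recycling rather than in elongation. GFM1 changed by -0.42 (SE 0.10, adjusted p = 0.00903), TSFM by -0.49 (SE 0.12, adjusted p = 0.0123) and GFM2 by -0.36 (SE 0.11, adjusted p = 0.0337). The fourth mitochondrial factor, TUFM, was not called (-0.18), nor were the 6 cytosolic factors, of which EEF2 was at -0.42 with a larger error (SE 0.19).

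Of 26 amino acid stress genes, 25 were tested. At 72 h 2 were called lower and 0 higher, with a median of -0.57, and at 144 h 12 were called lower and 0 higher, with a median of -0.50. Of all genes, 0.557% and 10.8% were called lower at these times, and the medians were 0.06 and 0.03. SHMT2 and MTHFD2, enzymes of mitochondrial folate metabolism, each changed by -1.05 at 144 h (SE 0.14, adjusted p = 0.000539 and SE 0.16, adjusted p = 0.00116). PHGDH, the first enzyme of serine synthesis, changed by -0.90 (SE 0.13, adjusted p = 0.00074). At 72 h 18 of the 25 were lower after depletion at an unadjusted p under 0.05, beside 4.63% of all genes. Between the si-NT groups 0 of the 25 were called, and 18 were lower at 144 h at an unadjusted p under 0.05, beside 2.57% of all genes. Both comparisons use the same si-NT libraries at 72 h, whose summed stress levels were 3778 and 4714 TPM, so they are not independent. The cytosolic genes with TGATGNAA in their promoter window, shown above, were called lower at 144 h in 6 of 7, with a median of -0.48 and NARS1 as the gene not called. The 9 cytosolic genes whose window lacked these letters were called in 3, with a median of -0.21. Cytosolic genes without a window are in neither count. They include VARS1, which was at -0.78 and not called, and genes that were called lower, so their absence bears on this contrast. YARS2, the mitochondrial gene with these letters, was at -0.16 and not called. These are counts of few genes, and the difference was not tested.

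Interferon genes were set beside WARS1, which interferon is known to induce. Of 13 listed, 8 were tested and 2 were called lower at 144 h, beside 10.8% of all genes. At 72 h 0 were called, with 2 lower at an unadjusted p under 0.05, beside 4.63% of all genes. MX1 changed by -0.97 (SE 0.18, adjusted p = 0.00356) and IFIT1 by -0.61 (SE 0.17, adjusted p = 0.0237), both from levels under 3 TPM. ISG15 was at 0.39 and did not pass (SE 0.14, adjusted p = 0.0597). WARS1 was at 101.77 and 113.48 TPM in si-NT cells and between 85.58 and 100.49 TPM after depletion at 144 h, a log2 fold change of -0.21 (SE 0.10, adjusted p = 0.146).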

How the data were processed

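RNA-seq was carried out on 12 libraries of LNCaP cells. According to the methods, ERCC spike-in RNA went into each total RNA before stranded libraries were made from mRNA. STAR placed the paired reads on hg19 (GRCh37), featureCounts counted them by gene, and the authors deposited TPM. The submitters' processing notes name Trim Galore 0.11.2, FastQC and STAR 2.4.0j. The deposited TPM table holds 63568 genes and 92 spike-ins. Every column sums to between 999999 and 1000001, so it keeps no read depth and its values are not scaled to the spike-ins. The spike-ins made up 0.805% to 1.97% of TPM over the libraries, and the ERCC scaling used their sums.

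The analysis used limma 3.58.1 in R 4.3.3 (lmFit, then eBayes with a trend) on log2(TPM + 1) in 4 groups. The 16337 genes that reached 1 TPM in 2 or more libraries were tested. Adjusted p-values are Benjamini-Hochberg values over all of these, and a gene was called at an adjusted p under 0.05. Fold changes on this scale understate changes of low genes. Summaries and plots used Python 3.11.15, NumPy 2.4.6, pandas 2.3.3 and matplotlib 3.10.9. The fit was also run on simulated data with known changes, which were larger than those of the synthetase genes. The outcome is not given here and does not bear on changes of their size. Gene positions and overlaps came from GENCODE 44 lifted to GRCh37, and promoter windows from RefSeq on GRCh38.p14.

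The genes and lists were chosen with earlier results of these data known. Values in every library are given for genes called at 72 h or for the time difference, of which there were 0, and for the 6 genes of each class with the smallest adjusted p at 144 h, and for others where their values are described. From each related list the 3 genes with the smallest adjusted p are named. Other settings tried were median-of-ratios, quantile and ERCC scaling, a pseudocount of 0.1, no filter, a mean of at least 5 TPM, no trend, a replicate block, the libraries of 1 time point, combined si-NT libraries, each siRNA alone, and each library left out. Leaving out VARS1 or VARS2 and a linear fold limit were chosen after seeing the data.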

Additional observations from a re-analysis of the deposited data

Results flagged for a closer look

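In 3 of 70 combinations of a gene and a group of 4 depleted libraries, 1 library stood apart from the other 3 beyond Dixon's limit for 4 samples, a ratio of gap to range of 0.829. Chance flags about 1 in 20 such groups. IARS1 was at 69.05 TPM in replicate 2 of siRNA 3 at 144 h, against 80.81 to 82.79 TPM in the other depleted libraries, and its call held without that library. VARS1 was at 11.86 TPM in replicate 1 of siRNA 2 at 72 h, against 5.24 to 5.63 TPM. MARS2 was at 20.84 TPM in replicate 2 of siRNA 2 at 144 h, against 25.76 to 26.7 TPM.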

How the results depend on the processing

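Of the 15 genes called at 144 h, all kept the call with a pseudocount of 0.1, a mean of at least 5 TPM, median-of-ratios size factors and combined si-NT libraries, and every alternative kept their direction. The 0 calls in the higher direction held in every alternative. Without a filter, where 33048 genes were tested, 7 cytosolic genes were called lower, and with siRNA 2 alone 5. With ERCC scaling 0 of the 15 genes kept the call. The 1 cytosolic gene called there was another one, and 0 mitochondrial genes were called. A log2 limit of 1.5 left 0 cytosolic and 0 mitochondrial genes. The methods word this limit as a fold change, the results as a log2 value. As a linear fold of 1.5, chosen after seeing the data, it left 3 cytosolic (FARSB, GARS1 and IARS1) and 0 mitochondrial genes, and 2 and 0 at an adjusted p under 0.01. Shares over all genes are not given here for the fold limits or for the run without a filter, so these counts lack a background. Mitochondrial calls were 8 with median-of-ratios size factors, 8 with quantile normalisation and 7 with combined si-NT libraries. Over all genes, median-of-ratios called 4363 and quantile normalisation 4421 in either direction. At 72 h, median-of-ratios size factors gave 2 cytosolic calls and combined si-NT libraries 1 mitochondrial call. The former setting called 285 of all genes at that time, 48.4% of them higher. The causes of these changes were not tested.

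The cytosolic median moved to -0.32 at 72 h and -0.80 at 144 h under ERCC scaling, to -0.49 at 144 h relative to its all-gene median, to -0.47 with combined si-NT libraries and to -0.33 with siRNA 2 alone. The mitochondrial median at 72 h moved to -0.24 under ERCC scaling, -0.12 relative to its all-gene median, -0.12 with median-of-ratios and -0.11 with quantile normalisation, and at 144 h to -0.60 under ERCC scaling.

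With each library left out, cytosolic genes called lower numbered 0 to 1 at 72 h and 3 to 12 at 144 h, and mitochondrial genes 1 to 5 at 144 h. The mitochondrial median at 72 h lay between -0.126 and 0.014, and it was above 0 only without replicate 1 of si-NT at 72 h. Leaving out VARS1 gave a cytosolic median of -0.39 at 144 h, and leaving out VARS2 a mitochondrial median of -0.27.

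Libraries with the same replicate number did not deviate together (correlations between -0.23 and 0.3 over 15 pairs of groups). With the replicate block, 10 cytosolic and 3 mitochondrial genes were called lower at 144 h, TARS1 and WARS2 losing their call. The share over all genes is not given here for that setting. With 2 si-NT libraries at a time point and no read depth, precision rests on few libraries, and small changes of the low mitochondrial genes may have gone undetected.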
